A study of Mus musculus with 6 samples.

Results

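The genes of the constitutive proteasome were described in kidney RNA-seq of wild-type mice labelled as 24M (4 libraries) or 2M (2 libraries) in age. Members were the genes listed in both deposited tables whose symbol is Psma, Psmb, Psmc, Psmd, Psme, Psmf or Psmg followed by a number, without the immunoproteasome genes Psmb8, Psmb9 and Psmb10 and without pseudogenes. This gave 43 of the 12546 genes that the tables share. They were 7 genes of the 20S alpha ring, 7 of the 20S beta ring, 6 ATPases and 11 non-ATPases of the 19S regulatory particle, 4 activators with 1 inhibitor, and 7 assembly chaperones. The activators, the inhibitor and the chaperones are not subunits of the mature 26S particle, so the set is wider than constitutive subunits alone.

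The proteasome is the protease that degrades most ubiquitin-tagged proteins of the cytosol and nucleus. Its barrel-shaped 20S core holds the active sites, on the beta subunits Psmb5, Psmb6 and Psmb7, and its alpha rings gate the entry. The 19S particle binds the ubiquitin chain, removes it, and unfolds and threads the substrate through a ring of ATPases. In mammals the transcription factor Nrf1, encoded by Nfe2l1, raises proteasome genes together when proteasome activity falls, through antioxidant response elements in their promoters. Interferon-gamma swaps the catalytic subunits for Psmb8, Psmb9 and Psmb10 and raises the PA28 activator genes Psme1 and Psme2.

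All libraries were made from total RNA of whole kidney, and their labels give the genotype as WT. No source used here gives the strain, the sex or the number of animals, and no label states that each library is a different animal. P-values thus cover the spread between these samples alone, and that spread may be technical. The libraries 24M_1, 24M_2, 2M_1 and 2M_2 are in a first table of FPKM (fragments per kilobase of gene, scaled to the mapped fragments of the library) and were compared by a test. The libraries 24M_3 and 24M_4 are in a second table made separately, and their levels are set beside the others without a test. Library depth is unknown, because FPKM values carry none. The 10 proximal tubule markers, for the main epithelium of kidney cortex, summed to 11176 and 11963 FPKM in 24M_1 and 24M_2, against 11169 and 11171 in 2M. They summed to 9153 in 24M_3 and 20639 in 24M_4, and none was at 0 in any library. The library 24M_3 stood apart in immune genes: 12 interferon-response genes summed to 537 FPKM there, against 35.4 to 54.8 in the other 24M libraries and 76.1 to 79.95 in 2M. In bulk tissue, fewer cells of a type and less RNA per cell cannot be told apart.

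In the tested libraries 1 of 43 proteasome genes was higher in 24M, 2.33%, and none was lower. It was Psmd3, which encodes Rpn3, a structural subunit of the 19S lid. The threshold was a limma adjusted p (Benjamini-Hochberg over all 11437 genes tested) below 0.05. Over all tested genes 0.761% were called higher and 0.813% lower, 1.57% in either direction, and 0.682% were called with a log2 change of at least 1 in size. A single call says nothing about the group as a whole. At an unadjusted p below 0.05 there were 2 members higher and 2 lower, which is 9.30% of the members, against 16.9% of all genes. These shares were not matched for level. The median log2 change was 0.011 over the 43 members, or -0.0083 without 2M_1, and -0.024 over all tested genes. All 43 members passed the filter on low values, which asked for 1 FPKM in at least 2 of the 4 libraries.

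**Figure D1:**
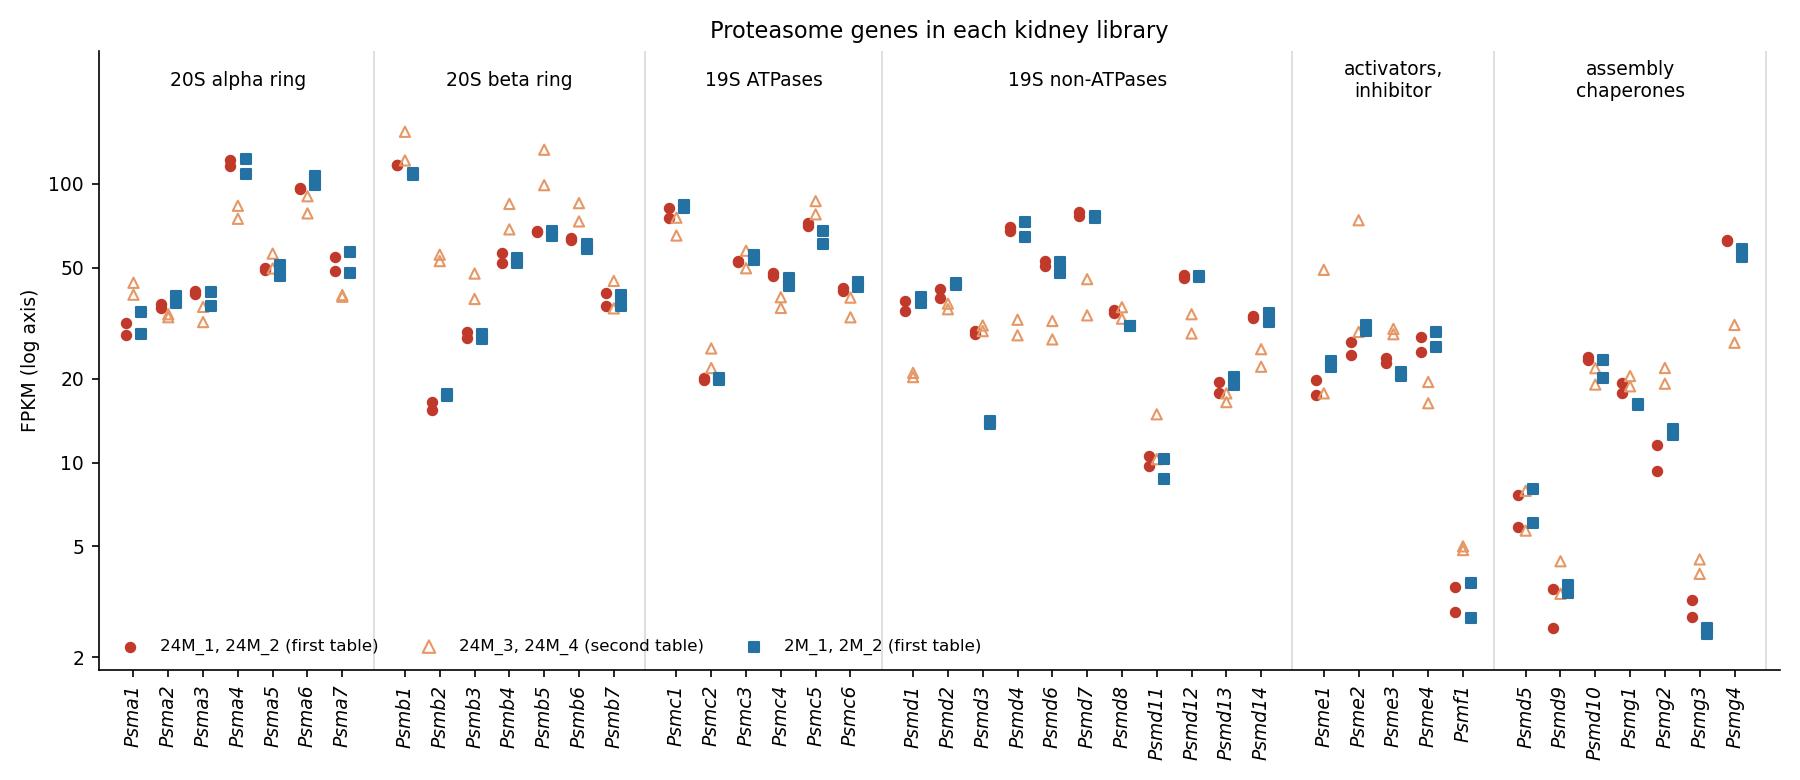
FPKM (log axis) of the 43 proteasome genes by role, with 1 point per library: filled circles for 24M_1 and 24M_2, open triangles for 24M_3 and 24M_4 of the second table, squares for 2M_1 and 2M_2. Circles and squares differ by at most 0.28 in mean log2(FPKM + 1) for each gene other than Psmd3, while triangles depart from both for many genes, such as Psmb2.

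Psmd3 had 29.7 and 28.8 FPKM in 24M_1 and 24M_2, against 13.8 and 14.1 FPKM in 2M_1 and 2M_2. The second table gave 29.6 FPKM in 24M_3 and 31.01 in 24M_4, so all 4 libraries of 24M lay above both libraries of 2M. Means were 29.2 ± 0.610 FPKM in 24M_1 and 24M_2, against 13.96 ± 0.249 in 2M (SD, n = 2 each), a ratio of 2.09. On the log2(FPKM + 1) scale the difference came to 1.02 ± 0.07 (SE; 95% interval 0.84 to 1.19; limma adjusted p = 0.00872). Psmd3 had the 14th smallest p of the 11437 genes tested. The call ended without 2M_1 (limma adjusted p = 0.139) and without 2M_2 (0.132), where the remaining 2M library is assumed to vary like the 24M pair. With each library left out in turn, the log2 change ran from 0.995 to 1.04.

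Marker lists of other cell types and of stress genes also differed between these libraries, and their part in the level of Psmd3 was not tested for any list. Of 11 T, NK, B and plasma cell markers, 4 were listed in both tables, and 1 of these passed the filter on low values. The 4 summed to 18.2 and 14.9 FPKM in 24M_1 and 24M_2 and to 208 and 67.1 in the second table. In 2M they summed to 1.70 and 2.47, with Nkg7 at 0 in 2M_1. Markers of the collecting duct, 10 in all, summed to 217 and 229 FPKM in 24M_1 and 24M_2 and to 251 and 238 in the second table, against 295 and 281 in 2M. The 7 markers of urothelium, which lines the renal pelvis, summed to 0.974 and 33.1 FPKM in 24M_1 and 24M_2 and to 5.88 and 4.25 in the second table, against 71.8 and 53.7 in 2M. Of 8 adipocyte markers, 4 were listed in both tables. They summed to 0.484 and 0.346 FPKM in 24M_1 and 24M_2 and to 0.246 and 5.89 in the second table, against 16.2 and 22.5 in 2M. The sums of these 4 lists did not overlap between ages over all 6 libraries. Of all tested genes in both tables, 9.88% had all 4 libraries of 24M above 2M and 16.7% had them below. Among the defining urothelium markers, Psca, Upk1b, Upk2 and Upk3a were at 0 in 24M_1, and Krt5, Upk2 and Upk3a in 24M_3 and 24M_4. The 6 red blood cell markers summed to 28.9 and 53.5 FPKM in 24M_1 and 24M_2 and to 206 and 173 in the second table, against 204 and 161 in 2M. The 14 immediate-early and heat shock genes summed to 1117 and 886 FPKM in 24M_1 and 24M_2 and to 257 and 302 in the second table, against 364 and 478 in 2M. For these 2 lists the second table did not lie on the same side of 2M as the first.

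Psmd3 lies on chromosome 11 (98682554 to 98695979, plus strand, mm10), and its identifier is ENSMUSG00000017221. None of the 31-base words of its longest coding transcript, 2148 bases long, occurs in an annotated transcript of another gene read in the same direction. Annotated copies in that direction thus do not share its reads at that length. Reverse complements of the words were not searched. The antisense gene Gm12356 overlaps Psmd3 and is listed in neither table, so its own level is not known here. No source used here says whether counting used the strand, so reads of that gene could be counted for Psmd3.

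Beside its partners Psmd3 stood low in 2M and nearer to them in 24M. The other 10 non-ATPase genes had a median of 39.9 and 37.2 FPKM in 24M_1 and 24M_2, and of 41.2 and 40.7 FPKM in 2M_1 and 2M_2. Psmd3 was at 74.4% and 77.5% of that median in 24M_1 and 24M_2, against 33.5% and 34.8% in 2M. In the second table it was at 105% in 24M_3 and 95.8% in 24M_4, where the other 10 genes had lower medians of 28.1 and 32.4 FPKM. In both libraries of 2M it ranked 10 of the 11 non-ATPase genes, above Psmd11 alone, and in 24M_1 and 24M_2 it ranked 9. FPKM is per length, so these levels can be set side by side, but no source used here says how gene lengths were set.

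**Figure D2:**
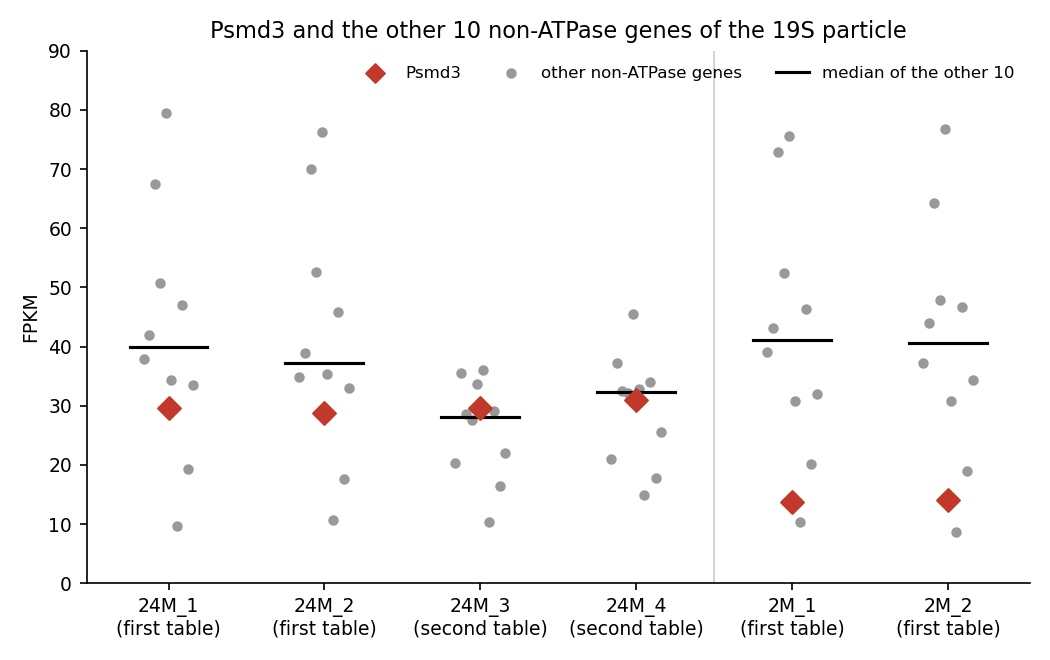
FPKM of Psmd3 (red diamonds) and of the other 10 non-ATPase genes of the 19S particle (grey points, with their median as a black line) in each library. Psmd3 sits at 28.8 to 31.01 FPKM in the 4 libraries of 24M and at 13.8 and 14.1 FPKM in the libraries of 2M, while the other genes keep a like median within the first table.

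The remaining 42 genes did not pass the test. Their log2 changes lay between -0.28 and 0.20, all within 0.3 in size, as were 83.8% of all tested genes. For 40 of the 43 members the 95% interval of the log2 change lay within 0.5 in both directions, against 70.6% of all tested genes. The exceptions were Psmd3 and the chaperone genes Psmg2 and Psmd9. In the first table the median level was 35.7 to 39.6 FPKM for members, against 6.625 to 6.838 for all tested genes. The median SE was 0.0722 for members and 0.104 for all tested genes. These shares thus set genes of unlike level side by side, and no matching for level was made. The highest upper bound among these 42 genes was 0.47, for Psmg3, below the lower bound of 0.84 for Psmd3. Ages did not overlap in the first table for 10 members with 24M above 2M (23.3%) and 9 with 24M below (20.9%). Over all tested genes these shares were 20.8% above and 29.6% below.

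**Figure D3:**
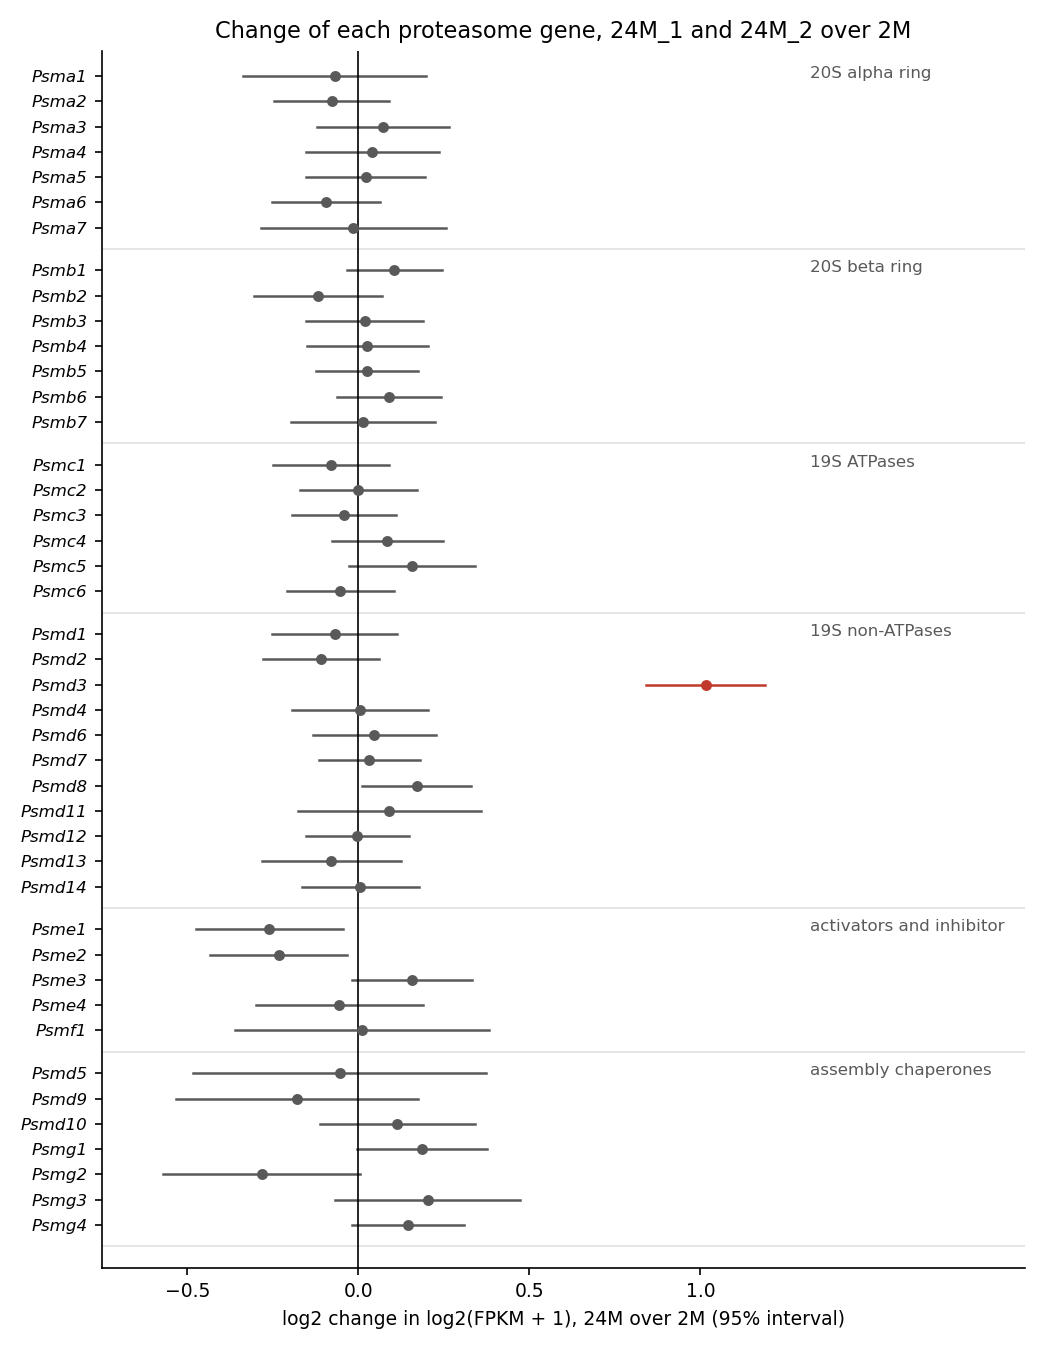
Log2 change on the log2(FPKM + 1) scale, 24M_1 and 24M_2 over 2M, with its 95% interval for each of the 43 genes, grouped by role. Psmd3 (red, adjusted p below 0.05) stands at 1.02, and the other 42 genes lie between -0.28 and 0.20.

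Genes of the 20S alpha ring, which forms the gated outer rings of the core, did not pass in either direction. Their median log2 change was -0.014, but 0.057 without 2M_2 and -0.046 without 2M_1. Psma4 had the highest mean level of all 43 members, with 121 and 116 FPKM in 24M_1 and 24M_2, against 108 and 122 in 2M_1 and 2M_2. Psma6, with 95.9 and 96.3 FPKM in 24M against 99.1 and 106 in 2M, did not overlap between ages, and its log2 change was -0.09 (95% interval -0.25 to 0.063; limma adjusted p = 0.509). Psma2 was also lower in both 24M libraries, at 37.0 and 35.7 FPKM against 37.4 and 39.6 (limma adjusted p = 0.613). Both genes lay below 2M again in 24M_3 and 24M_4, at 78.3 and 90.2 FPKM for Psma6 and 33.2 and 34.04 for Psma2. The ages overlapped for the other alpha genes, Psma1, Psma3, Psma4, Psma5 and Psma7, whose log2 changes ran from -0.070 for Psma1 to 0.072 for Psma3. Psma7 had 48.5 and 54.8 FPKM in 24M against 56.8 and 47.8 in 2M.

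None of the genes of the 20S beta ring, which holds the active sites, passed the test. Psmb5, whose product carries the chymotrypsin-like site, had 67.9 and 67.3 FPKM in 24M_1 and 24M_2, against 67.8 and 65.0 in 2M (log2 change of 0.026, 95% interval -0.12 to 0.18). Psmb6, the caspase-like subunit, had 62.8 and 64.1 FPKM in 24M against 58.4 and 60.9 in 2M (log2 change of 0.089; limma adjusted p = 0.521). Psmb7, the trypsin-like subunit, had 36.5 and 40.5 FPKM in 24M against 36.4 and 39.8 in 2M. The ages overlapped for Psmb5 and Psmb7 but not for Psmb6. Of the non-catalytic beta genes, Psmb1 had 117 FPKM in both 24M libraries against 108 and 109 in 2M (log2 change of 0.11; limma adjusted p = 0.407). Psmb2 was the lowest of the ring in the first table, at 15.5 and 16.5 FPKM in 24M against 17.3 and 17.6 in 2M (log2 change of -0.12; limma adjusted p = 0.493). Neither gene overlapped between ages in the first table. The structural genes Psmb3 and Psmb4 had log2 changes of 0.018 and 0.026, with overlap. The median log2 change of the 7 beta genes was 0.026, but -0.018 without 24M_2 and 0.086 without 24M_1. Of the 7 beta genes, 6 lay above every library of the first table in both 24M_3 and 24M_4, Psmb5 at 98.9 and 132 FPKM among them, and Psmb7, at 35.7 and 44.8, was the exception.

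The promoters of 4 members that carry the letters of an antioxidant response element are shown because Nrf1 is known to act through that element. Sequences are from RefSeq on GRCm38.p6, whose chromosomes are those of mm10, and 36 of the 43 members matched the table. The other 7 had no window and were not searched for any motif: Psmb1, Psmb2, Psmb7, Psmc3, Psmd3, Psmd7 and Psmg2. The only called gene, Psmd3, was thus not searched. The search covered the 250 bases before each gene start on both strands. The letters TGACNNNGC were present for 5 of the 36 members (13.9%), Psmb5, Psmb6, Psmc6, Psmd12 and Psmd9, and for 11.5% of all 27025 genes. Gene starts differ between RefSeq and GENCODE, and each printed stretch stops before the GENCODE gene begins. The sequences run 5′ to 3′ on the gene's strand, with that match in capitals. They are stretches of the windows of Psmb5 (chr14:54618023-54618245, minus strand), Psmb6 (chr11:70525107-70525356, plus strand), Psmc6 (chr14:45329574-45329787, plus strand) and Psmd12 (chr11:107479278-107479483, plus strand).
Psmb5: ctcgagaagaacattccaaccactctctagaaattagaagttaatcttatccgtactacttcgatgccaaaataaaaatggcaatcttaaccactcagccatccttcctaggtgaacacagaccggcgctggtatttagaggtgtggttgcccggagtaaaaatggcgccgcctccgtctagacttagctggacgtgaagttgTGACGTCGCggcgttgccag
Psmb6: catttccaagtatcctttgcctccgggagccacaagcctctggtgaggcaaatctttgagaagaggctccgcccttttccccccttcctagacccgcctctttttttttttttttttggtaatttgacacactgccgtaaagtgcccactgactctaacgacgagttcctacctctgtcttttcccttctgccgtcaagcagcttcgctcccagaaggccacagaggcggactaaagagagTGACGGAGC
Psmc6: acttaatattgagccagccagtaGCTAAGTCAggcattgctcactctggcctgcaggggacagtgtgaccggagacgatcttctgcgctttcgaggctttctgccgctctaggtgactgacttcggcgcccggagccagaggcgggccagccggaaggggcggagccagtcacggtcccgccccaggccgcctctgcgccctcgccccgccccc
Psmd12: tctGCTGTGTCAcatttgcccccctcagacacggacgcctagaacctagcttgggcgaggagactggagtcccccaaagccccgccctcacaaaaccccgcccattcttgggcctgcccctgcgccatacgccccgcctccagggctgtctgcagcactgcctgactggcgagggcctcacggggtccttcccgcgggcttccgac
The match began 47 bases before the RefSeq gene start in Psmb5 and 9 bases before it in Psmb6, on the gene's strand. In Psmc6 and Psmd12 it lay 227 and 247 bases before, on the other strand. None of the 4 genes passed the test, with log2 changes of 0.026, 0.089, -0.052 and -0.0027 in that order. A match of letters is a description and does not show binding.

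The 6 ATPase genes form the unfolding ring of the 19S base, and none passed. Psmc5, encoding Rpt6, had 70.6 and 72.5 FPKM in 24M_1 and 24M_2, 77.7 and 86.6 in the second table, against 60.8 and 67.6 in 2M. All 4 libraries of 24M lay above 2M, and the log2 change in the first table was 0.16 (95% interval -0.027 to 0.34; limma adjusted p = 0.361). Psmc4, encoding Rpt3, had 46.6 and 47.7 FPKM in 24M against 45.8 and 43.0 in 2M, but only 35.9 and 39.2 in the second table (log2 change of 0.085 in the first; limma adjusted p = 0.573). The ages did not overlap for Psmc4 in the first table, and the second table lay on the other side of 2M. Psmc2, encoding Rpt1, had 19.8 and 20.1 FPKM at both ages. Psmc6, encoding Rpt4, had 41.4 and 42.3 FPKM in 24M against 42.6 and 44.3 in 2M, and 33.2 and 39.1 in the second table, so that all 4 libraries of 24M lay below 2M. Psmc1 and Psmc3, encoding Rpt2 and Rpt5, had log2 changes of -0.079 and -0.043. The median log2 change of the ATPases was -0.022, but -0.0014 without 2M_2 and -0.042 without 2M_1.

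Among the other non-ATPase genes of the 19S particle, Psmd8, encoding the lid subunit Rpn12, had the smallest p after Psmd3. It had 34.3 and 35.4 FPKM in 24M_1 and 24M_2, 36.1 and 32.8 in the second table, against 30.9 and 30.8 in 2M. All 4 libraries of 24M lay above 2M, and the log2 change was 0.17 ± 0.06 (SE; limma adjusted p = 0.271). Psmd14, the deubiquitinase Rpn11, had 33.5 and 33.1 FPKM in 24M against 32.0 and 34.3 in 2M, and its partner Psmd7 had 79.5 and 76.3 against 75.6 and 76.7. The ubiquitin receptor gene Psmd4 had 67.5 and 70.04 FPKM in 24M against 72.9 and 64.3 in 2M. The ages overlapped for all 3 of these genes. Psmd2, which encodes the receptor and scaffold Rpn1, had 41.9 and 39.0 FPKM in 24M against 43.2 and 44.0 in 2M (log2 change of -0.11; limma adjusted p = 0.484). Psmd11, encoding the lid subunit Rpn6, was the lowest of the class, with 9.69 and 10.6 FPKM in 24M against 10.3 and 8.70 in 2M. Psmd1, Psmd6, Psmd12 and Psmd13 had log2 changes of -0.069, 0.046, -0.0027 and -0.079. None of these 10 genes passed, and the median of all 11 non-ATPases, Psmd3 included, was 0.0062, but -0.018 without 2M_2.

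The activator genes Psme1 and Psme2 were lower in both tested 24M libraries, without passing the test. Psme1, encoding PA28 alpha, had 19.8 and 17.5 FPKM in 24M_1 and 24M_2, against 21.96 and 23.1 in 2M (log2 change of -0.26, 95% interval -0.47 to -0.046; limma adjusted p = 0.227). Psme2, encoding PA28 beta, had 24.3 and 27.1 FPKM in 24M against 31.1 and 29.6 in 2M (log2 change of -0.23; limma adjusted p = 0.245). Both genes lie on chromosome 14, Psme1 at 55578123 to 55581529 and Psme2 at 55587441 to 55591113 (mm10), with Emc9, a gene of the tables, between them. Beside them, the 12 interferon-response genes summed to 54.7 and 54.8 FPKM in 24M_1 and 24M_2 and to 79.95 and 76.1 in 2M, and their part in this difference was not tested. Psme1 is uncertain, because Emc9 overlaps its end and 22.1% of its 31-base words occur in other annotated transcripts. Psme2 is uncertain, because 66.2% of its 31-base words occur in Psme2b, which had 3.99 and 4.90 FPKM in 24M against 3.55 and 2.50 in 2M. Psme2b lies just outside the set because its symbol ends in a letter.

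The library 24M_3 differed from the others in these activator genes. Psme1 reached 49.1 FPKM in 24M_3, against 17.5 to 19.8 in the other 24M libraries, and Psme2 reached 74.0 against 24.3 to 29.4. The nuclear activator Psme3, encoding PA28 gamma, had 28.9 and 30.2 FPKM in the second table and 22.8 and 23.8 in 24M_1 and 24M_2, against 21.2 and 20.4 in 2M (log2 change of 0.16 in the first table; limma adjusted p = 0.342). Psme4, encoding PA200, had 28.2 and 24.9 FPKM in 24M against 29.4 and 25.9 in 2M, and 16.3 and 19.5 in the second table. The inhibitor gene Psmf1, encoding PI31, had 2.92 and 3.58 FPKM in 24M against 2.78 and 3.69 in 2M, and 5.005 and 4.86 in the second table. Ages overlapped for both in the first table, and their log2 changes were -0.056 for Psme4 and 0.011 for Psmf1.

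The RefSeq windows of Psme1 and Psme2 were searched in the same way. That of Psme1 begins 121 bases inside the gene as GENCODE gives it, so it is not sequence before the GENCODE start, and that of Psme2 reaches 12 bases into its gene. Neither held TGACNNNGC, the interferon-stimulated response element letters (GAAA, any 2 bases, GAAA), the gamma-activated site letters TTCNNNGAA, CCAAT or CCGGAA, on either strand. Of all genes 3.46% hold the interferon-stimulated response element letters and 8.13% hold TTCNNNGAA in such a window, against 3 (8.33%) and 1 (2.78%) of the 36 members. The letters CCGGAA, the core bound by ETS factors, were present for 17 of the 36 members (47.2%) against 13.6% of all genes, and CCAAT for 12 (33.3%) against 37.5%. For none of the motif shares were all genes matched to the members in level or base content. No match in capitals overlapped one of the other motifs. No match says only that these letters are not in the window.

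The immunoproteasome genes did not pass in the tested libraries and were high in 24M_3. Psmb8 had 7.01 and 6.63 FPKM in 24M_1 and 24M_2 against 6.27 and 7.34 in 2M (limma adjusted p = 0.984). Psmb9 had 0.704 and 1.40 FPKM against 1.15 and 0.997 in 2M (limma adjusted p = 0.949), and Psmb10 had 3.35 and 3.25 against 3.23 and 2.69 (limma adjusted p = 0.635). Psmb10 had 41.8 FPKM in 24M_3 and 6.44 in 24M_4, so all 4 libraries of 24M lay above 2M for this gene. For Psmb8 and Psmb9 the ages overlapped in the first table. Psmb8 stood at 83.9 FPKM in 24M_3, which is 84.9% of Psmb5, while in the other 24M libraries it was at 4.37% to 10.3% of Psmb5 and in 2M at 9.24% and 11.3%. Psmb10 was at 117% of Psmb7 in 24M_3, against 8.02% to 14.4% in the other 24M libraries and 6.76% and 8.88% in 2M. Psmb9 reached 19.2% of Psmb6 in 24M_3 and at most 2.18% elsewhere. Beside these, the 10 macrophage and dendritic cell markers summed to 2217 FPKM in 24M_3, against 158 to 316 in the other 24M libraries and 172 and 206 in 2M, and none of these markers was at 0 in any library. Their part in the levels of Psme1, Psme2 and the immunoproteasome genes was not tested.

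**Figure D4:**
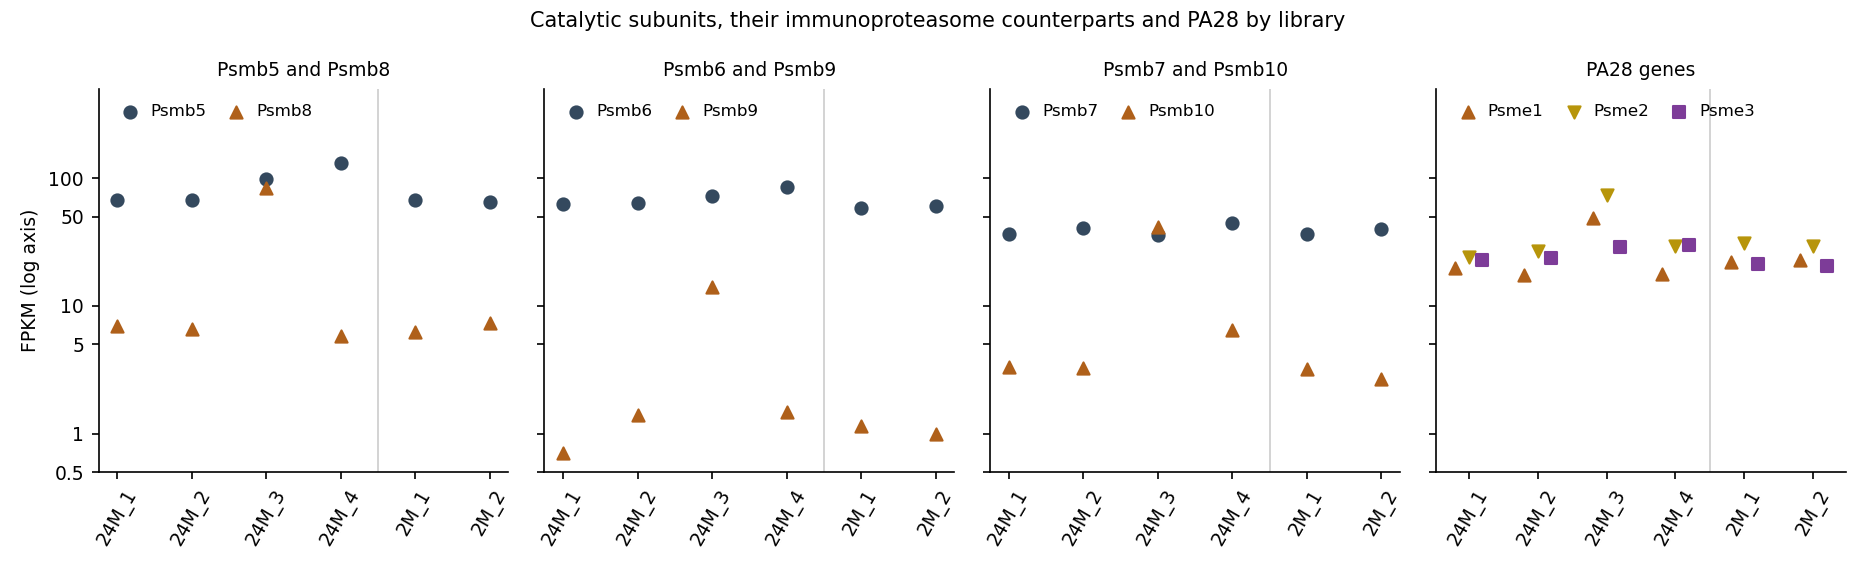
FPKM (log axis) by library of the catalytic genes Psmb5, Psmb6 and Psmb7 beside Psmb8, Psmb9 and Psmb10, and of the PA28 genes Psme1, Psme2 and Psme3. In 24M_3 Psmb8 stands at 83.9 FPKM, Psme1 at 49.1 and Psme2 at 74.0, while Psme3 is at 28.9 there and at 30.2 in 24M_4.

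Of the 7 assembly chaperone genes none passed, and their median log2 change was 0.11, but 0.0105 without 2M_1 and 0.19 without 2M_2. Psmg1 and Psmg2 encode a pair, PAC1 and PAC2, that starts the alpha ring. Psmg1 had 17.8 and 19.2 FPKM in 24M_1 and 24M_2 against 16.1 and 16.2 in 2M (log2 change of 0.19, 95% interval -0.0045 to 0.38; limma adjusted p = 0.305). Psmg2 had 11.6 and 9.34 FPKM in 24M against 13.2 and 12.6 in 2M (log2 change of -0.28, 95% interval -0.57 to 0.0043; limma adjusted p = 0.3005). The second table put Psmg2 at 19.2 and 21.8 FPKM, above both 2M libraries. The partners PAC3 and PAC4 had unlike levels: Psmg3 was the lowest of all 43 members, with 2.80 and 3.22 FPKM in 24M against 2.42 and 2.54 in 2M, while Psmg4 had 62.2 and 62.95 FPKM in 24M against 54.5 and 58.6 in 2M. Both lay above 2M in 24M_1 and 24M_2, but in the second table Psmg3, at 3.99 and 4.49 FPKM, was above 2M and Psmg4 below it. The ages overlapped for each of the chaperones of the 19S base. Psmd5 had 5.86 and 7.68 FPKM in 24M against 6.09 and 8.05 in 2M, Psmd9 had 2.54 and 3.51 against 3.65 and 3.41, and Psmd10 had 23.3 and 23.8 against 20.1 and 23.4. In that order their limma adjusted p values were 0.910, 0.582 and 0.584.

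Levels of the 43 genes nearly kept their order within the first table. Spearman's rho over the 43 genes was 0.992 for 24M_1 with 24M_2, 0.991 for 2M_1 with 2M_2, and 0.979 to 0.989 for pairs of unlike age. Pairs from unlike tables had a rho of 0.708 to 0.814, and 24M_3 with 24M_4 had 0.895. These are descriptions across genes that share libraries and gene lengths. The summed FPKM of the 43 genes was 0.617% and 0.612% of all FPKM listed in 24M_1 and 24M_2 and 0.559% and 0.547% in the second table, against 0.61% and 0.604% in 2M. Within the core, the highest of the 14 subunit genes was 7.84 and 7.07 times the lowest in 24M_1 and 24M_2 and 6.28 and 6.96 times in 2M, although each subunit is present in equal number in the particle.

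Levels in the second table were set against 24M_1 and 24M_2 as a description. The median log2 difference of 24M_3 and 24M_4 was 0.485 for the beta ring, 0.484 for the activators and inhibitor, 0.079 for the chaperones, -0.067 for the ATPases, -0.19 for the alpha ring and -0.47 for the non-ATPases, with overlapping ranges. It was 0.024 over the 43 members and -0.033 over all tested genes in both tables, and 6.98% of members against 9.19% of these genes differed by at least 1 in size. Psmb2 had 55.7 and 52.8 FPKM in 24M_3 and 24M_4, above every library of the first table. Psmd4, with 28.6 and 32.5, Psmd7, with 33.7 and 45.5, and Psmg4, with 31.2 and 26.9, lay below all of them. In all, 13 members (30.2%) were above all 4 libraries of the first table in both 24M_3 and 24M_4, and 16 (37.2%) were below, against 27.3% and 32.9% of all genes. Both sets of libraries carry the label 24M, so these differences cannot be told apart from the way each table was made. All 4 libraries of 24M were above both libraries of 2M for 8 members, 18.6% against 9.88% of all genes, namely Psmd3, Psmd8, Psmb1, Psmb6, Psmc5, Psme3, Psmg1 and Psmg3. They were below for 4 members, Psma2, Psma6, Psmc6 and Psmd2, which is 9.30% against 16.7% of all genes.

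**Figure D5:**
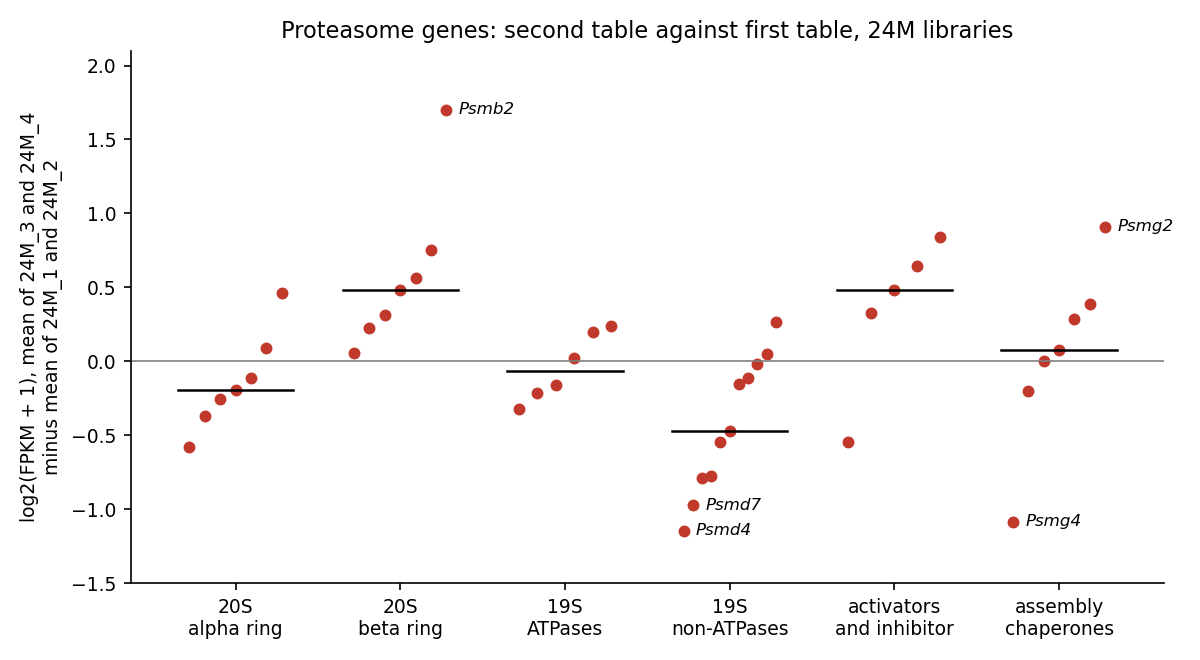
Difference in log2(FPKM + 1) between the mean of 24M_3 and 24M_4 (second table) and the mean of 24M_1 and 24M_2 (first table) for each proteasome gene by role, with role medians as lines. The beta ring genes lie above 0, with Psmb2 at 1.70, and most non-ATPase genes lie below 0, with Psmd4 at -1.15.

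Of 31 tested genes that extract, carry or process ubiquitin conjugates, complete the particle or regulate its genes, none passed in either direction, with 5 higher and 0 lower at an unadjusted p below 0.05 by limma. That is 16.1% of the list, against 16.9% of all tested genes in either direction. The share of all genes was not split by direction, so the 5 higher genes have no like share beside them. The ages did not overlap for 11 genes with 24M above (35.5%) and 7 with 24M below (22.6%), against 20.8% and 29.6% of all genes. The median log2 change of this list was 0.021. Nfe2l2, encoding the oxidative stress factor Nrf2, had 43.8 and 44.4 FPKM in 24M_1 and 24M_2 against 33.5 and 34.9 in 2M (log2 change of 0.36 ± 0.06; limma adjusted p = 0.0671), but 38.4 and 30.5 in 24M_3 and 24M_4. Ddi2, the protease that activates Nrf1, had 13.9 and 14.8 FPKM in 24M against 11.4 and 10.5 in 2M (log2 change of 0.36; limma adjusted p = 0.130), and 10.6 and 10.4 in the second table. Nfe2l1 itself had 26.6 and 16.7 FPKM in 24M against 18.3 and 17.5 in 2M, so that 24M_1 alone was high, and 9.49 and 5.33 in the second table.

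Akirin2, which carries proteasomes into the nucleus, had 34.8 and 38.1 FPKM in 24M_1 and 24M_2 against 26.7 and 31.8 in 2M (limma adjusted p = 0.233). Nploc4, a cofactor of the segregase Vcp, had 13.2 and 14.01 FPKM in 24M against 11.7 and 11.2 in 2M (limma adjusted p = 0.236). The ubiquitin receptor Adrm1, a further 19S subunit, had 18.8 and 18.98 FPKM in 24M against 15.6 and 16.9 in 2M (limma adjusted p = 0.278). The shuttle factor Rad23b had 21.04 and 22.03 FPKM in 24M against 17.9 and 20.05 in 2M (limma adjusted p = 0.368). These 4 genes were higher in both tested 24M libraries, and Rad23b alone of them was also above 2M in both 24M_3 and 24M_4. The 7 genes with both tested 24M libraries below 2M were Ubr4, Ubb, Ufd1, Txnl1, Ube3a, Vcp and Uchl5, with log2 changes from -0.092 for Ubr4 to -0.032 for Vcp. Vcp, the segregase that pulls ubiquitylated proteins from complexes and membranes, had 106.3 and 106.5 FPKM in 24M_1 and 24M_2 and 88.2 and 98.98 in the second table, against 109.1 and 108.6 in 2M (limma adjusted p = 0.818). The maturation factor Pomp, the small subunit Sem1 and the deubiquitinase Usp14 had log2 changes of 0.073, 0.073 and 0.021. Pomp had 14.1 and 15.7 FPKM in 24M_1 and 24M_2 and 22.6 and 23.7 in the second table, against 14.1 and 14.05 in 2M.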

How the data were processed

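Kidney RNA-seq of 6 libraries was deposited as 2 tables of FPKM, per the file headers, with 1 value for each gene and library. Titles gave the group and number of each library. The submitters' processing notes name HISAT2 2.0.5, featureCounts 1.5.0-p3, the program DESeq2 1.20.0 and mm10, without roles; neither an annotation nor the way FPKM were derived is given in the sources used here. The first table lists 12666 genes, and for each the larger mean of an age was at least 0.501 FPKM; the second lists 13606. Ensembl IDs were matched to symbols without their version, and 18 and 27 IDs found none.

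In the first table, genes with a value of 1 FPKM or above in 2 or more libraries were tested with limma 3.58.1 in R 4.3.3 on log2(FPKM + 1), fitting age alone with an intensity trend and robust variance. Changes on this scale understate those of low genes. Benjamini-Hochberg adjustment covered all 11437 genes. For a single value, 2 libraries against 2 cannot give an exact two-sided permutation p below 0.333. The fit was tested on simulated data. It called 88 of 100 genes with a simulated log2 change of 1 in size, but only 12 of 100 with 0.5. Of 11237 unchanged genes it called 3. Changes of 0.5 were thus mostly missed in the simulation. Its changed genes were drawn from all tested genes and were not matched to the members in level or spread. Alternatives changed the pseudocount, the filter, the scaling, the variance model, the replicate block and the libraries used.

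The members, role groups and lists were chosen with earlier results of these data known. Every member is named; library values are printed for called members, the 2 members with the smallest p in each role, catalytic subunits, activators, the inhibitor and the highest and lowest members, and others were added for their role. Coordinates are from GENCODE M21 on GRCm38. How reads were split between near-identical genes is not stated: 11 members share at least 20% of their 31-base words with other annotated transcripts, mostly pseudogenes, and 8 overlap another gene of the tables, so their levels are uncertain. Figures were drawn with matplotlib 3.10.9 in Python 3.11.15.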

Additional observations from a re-analysis of the deposited data

Results flagged for a closer look

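Among the 4 libraries of 24M, taken across both tables on the log2(FPKM + 1) scale, 1 library lay far from the others for 6 of 77 proteasome, immunoproteasome and pathway genes. Chance alone flags about 1 in 20 groups of 4 like libraries, but the tables here were made separately. The share flagged over all genes was not computed, so the count is not read as a result about these genes. The gap to the nearest library, as a share of the whole range, was 0.885 for Psme1, 0.831 for Psme2 and 0.863 for Psma5, each with 24M_3 highest. It was 0.858 for Psmb1, with 24M_4 highest at 154 FPKM. For the immunoproteasome genes set beside them it was 0.934 for Psmb8 and 0.8293 for Psmb9, again with 24M_3 highest. Psma5, an alpha ring gene, stood at 56.2 FPKM in 24M_3 and at 49.1 to 50.03 in the other 24M libraries. Psma5 shares 64.0% of its 31-base words with other annotated transcripts, so its level is uncertain.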

How the results depend on the processing

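Of 11 alternatives, 9 kept the call of Psmd3, and its log2 change ran from 0.995 to 1.06 over all 11 (limma adjusted p 0.00539 to 0.139). The 2 that ended it left out a 2M library, so the count of proteasome genes called higher ran from 0 to 1 over the 4 fits with a library left out. No member was called lower, and no pathway gene was called, under any alternative. Over all genes, those fits called 0 to 36 higher and 0 to 91 lower, with 0 in both directions without 2M_1 or without 2M_2, where 1215 and 1452 genes had an unadjusted p below 0.05 by limma. Without trend and robust variance 53 were higher and 55 lower. Deviations of same-numbered libraries correlated at -0.059 over genes, so the numbers are not taken to pair the libraries; with the replicate block 25 genes were higher and 18 lower, and Psmd3 had a limma adjusted p of 0.0425. With all libraries, role medians were -0.014 for the alpha ring, -0.022 for the ATPases and -0.056 for the activators and inhibitor. Scaled to the same median, they were 0.011 for the alpha ring and 0.0036 for the ATPases. With a library left out they ran from -0.046 to 0.057 for the alpha ring, from -0.042 to -0.0014 for the ATPases, from -0.018 to 0.086 for the beta ring, from -0.018 to 0.021 for the non-ATPases, from 0.0105 to 0.19 for the chaperones, from -0.0083 to 0.0196 for all 43 members and from -0.145 to -0.102 for the activators and inhibitor, which stood at -0.144 with the filter at 5 FPKM, where 40 members were tested. The depth of the libraries is unknown, so no limit from counting can be given. The cause of these shifts was not tested.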
